A study of Mus musculus with 4 samples.

Results

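Late granulocyte precursors were taken as cells with at least 2 unique molecular identifiers (UMIs, 1 per captured RNA molecule) of at least 2 of the 3 genes Ltf, Ly6g and Cd177, among cells that had 500 or more genes, 1000 or more gene UMIs and a mitochondrial share of no more than 10%. They numbered 19294 of the 34122 cells that passed this filter in all 4 libraries. RNA and 13 surface proteins were counted together in single cells (CITE-seq) of mouse bone marrow, sorted for the leukocyte antigen CD45.2 and the stem cell factor receptor Kit, 10 weeks after a transplantation. A control library stood beside a library each of the groups Mll3SI, Mll4SI and Mll3/4SI, so that with 1 library per group no difference between groups had a replicate check and the intervals given cover counting error only. MLL3 and MLL4 are histone methyltransferases (Kmt2c and Kmt2d). The labels do not spell out SI, and the alleles, the number of animals pooled, the recipient and the meaning of the 2 hashtag antibodies were not given in the sources used here.

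Neutrophils make their granules in order. Promyelocytes load primary granules with Mpo, Elane, Prtn3 and Ctsg, myelocytes load specific granules with lactoferrin (Ltf), cathelicidin (Camp), Ngp and lipocalin 2 (Lcn2), and later stages load gelatinase granules with Mmp8 and Mmp9 once division has stopped. Cebpe is the transcription factor of the specific granule stage. Ly6g encodes an antigen, not necessarily the only one, that Gr1 antibodies bind on mouse neutrophils, Cd177 a neutrophil surface glycoprotein, and Abca13 a large ABC transporter.

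The libraries held 140546094 to 177753607 gene UMIs, with a median of 12021.5 to 17886 per late cell. Kmt2c stood at 155, 129, 164 and 149 CPM (the summed UMIs of a gene per 1000000 gene UMIs of late cells) in control and then Mll3SI, Mll4SI and Mll3/4SI, the order of all series of 4 values here, and Kmt2d at 50.4, 44.8, 39.2 and 41.8 CPM. Counts of 3′ ends do not check the alleles, which the labels do not describe. The sex-linked transcript Xist stood at 0.0318, 0.246, 758 and 787 CPM, so that sex and genotype cannot be told apart in Mll4SI and Mll3/4SI.

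The markers Camp and Ngp, which the rule did not use, were abundant in late cells of each library. For comparison, Elane cells are earlier granulocyte cells with at least 5 Elane UMIs, under 2 Fcnb UMIs and outside the late rule. Their median depth in control was 26130 gene UMIs before thinning, against 15183 in late cells. Camp was detected in every late cell, but also in 98.9%, 95.3%, 99.8% and 98.0% of Elane cells. After each cell was thinned to 3000 UMIs, Camp had a UMI in 99.9% of control late cells and 45.7% of control Elane cells. Ngp then had a UMI in 99.9% of control late cells and 19.99% of control Elane cells. These shares are a description, since both classes were chosen by their RNA. Of all gene UMIs in late cells, the calcium-binding protein genes S100a9 and S100a8 took 11.5% and 6.96% in control, Camp took 6.30% and Ngp 2.46%. Camp stood at 62977, 65463, 67763 and 59476 CPM, and Ngp at 24588, 21840, 24274 and 25241 CPM. Their log2 ratios to control (of CPM + 1) lay between -0.17 and 0.11.

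Sequences upstream of the start sites are shown for the granule genes and, further on, for a gene cluster that was high in 1 library. The windows hold the 200 bases before each start from RefSeq promoters (GRCm38.p6), 5′ to 3′ on the gene's strand. Capitals mark matches on either strand to the C/EBP core TTNNGNAA or the PU.1 core GAGGAA, which overlap in none of them. Over all 32851 windows of this length, 29.993% held the first and 19.0253% the second. Ngp and Ltf lie on chromosome 9 (9:110419747 to 110423012 and 9:111019271 to 111042767, GENCODE M21, GRCm38), as does Camp (9:109847379 to 109849617), Ly6g on chromosome 15 (15:75155240 to 75159126) and Chil3 on chromosome 3 (3:106147554 to 106167564).
Ngp (chr9:110419608-110419807, plus strand): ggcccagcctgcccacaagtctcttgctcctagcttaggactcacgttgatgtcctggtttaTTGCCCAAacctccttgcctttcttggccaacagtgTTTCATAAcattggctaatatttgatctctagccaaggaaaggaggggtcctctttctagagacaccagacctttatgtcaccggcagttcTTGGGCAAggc
Ltf (chr9:111019092-111019291, plus strand): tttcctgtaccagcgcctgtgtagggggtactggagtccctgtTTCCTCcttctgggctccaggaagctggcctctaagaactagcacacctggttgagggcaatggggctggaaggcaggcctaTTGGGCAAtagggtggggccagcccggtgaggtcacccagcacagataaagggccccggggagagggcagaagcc
Ly6g (chr15:75155061-75155260, plus strand): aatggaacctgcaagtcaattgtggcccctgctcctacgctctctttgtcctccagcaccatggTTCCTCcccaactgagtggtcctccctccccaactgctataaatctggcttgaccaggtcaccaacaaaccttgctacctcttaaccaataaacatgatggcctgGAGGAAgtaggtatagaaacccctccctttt
Chil3 (chr3:106167565-106167764, minus strand): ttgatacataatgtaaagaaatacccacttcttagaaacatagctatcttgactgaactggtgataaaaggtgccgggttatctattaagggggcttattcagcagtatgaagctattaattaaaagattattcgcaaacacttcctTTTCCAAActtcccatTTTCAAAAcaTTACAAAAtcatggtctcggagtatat
The Ngp and Chil3 windows held 3 matches each to the C/EBP core, the Ltf window 1 to each core, and the Ly6g window, 1 of 2 starts listed, 2 matches to the PU.1 core. No match was found in the Camp window, and a match is a match of letters, not a measured site.

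Late cells were the largest share of the Mll4SI library and the smallest of Mll3/4SI. They made up 53.7% of control cells (3843 of 7152, exact 95% interval 52.6 to 54.9). The Mll3SI share was 49.97% (4306 of 8617), the Mll4SI share 72.3% (8092 of 11187) and the Mll3/4SI share 42.6% (3053 of 7166). Relative to control this was 0.930 (0.902 to 0.959), 1.35 (1.31 to 1.38) and 0.793 times (0.766 to 0.821). Because the rule counts UMIs, the share was repeated at an equal depth of 3000 UMIs per cell, leaving out 119 to 227 shallower cells per library, and became 39.3%, 33.2%, 47.1% and 24.4% with ratios of 0.844, 1.20 and 0.621. The order of the 4 libraries was the same. With all 3 genes required in place of 2, the Mll4SI ratio turned to 0.871, and those of Mll3SI and Mll3/4SI were 0.804 and 0.388.

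The 2 hashtags divided each library into cells whose late shares differed most in Mll3/4SI. Hashtag1 and Hashtag2 cells were late in 53.98% and 52.04% of control cells. The pair of shares was 44.3% and 51.0% for Mll3SI, 68.7% and 71.4% for Mll4SI, and 51.4% and 33.2% for Mll3/4SI. The lower share of Mll3/4SI therefore stood mainly in its Hashtag2 cells, with a ratio to control of 0.637 against 0.952 for Hashtag1. Cells above both hashtag thresholds, which may hold more than 1 cell, made up 5.54%, 12.3%, 13.6% and 8.35% of late cells and stayed in unless said otherwise.

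**Figure D1:**
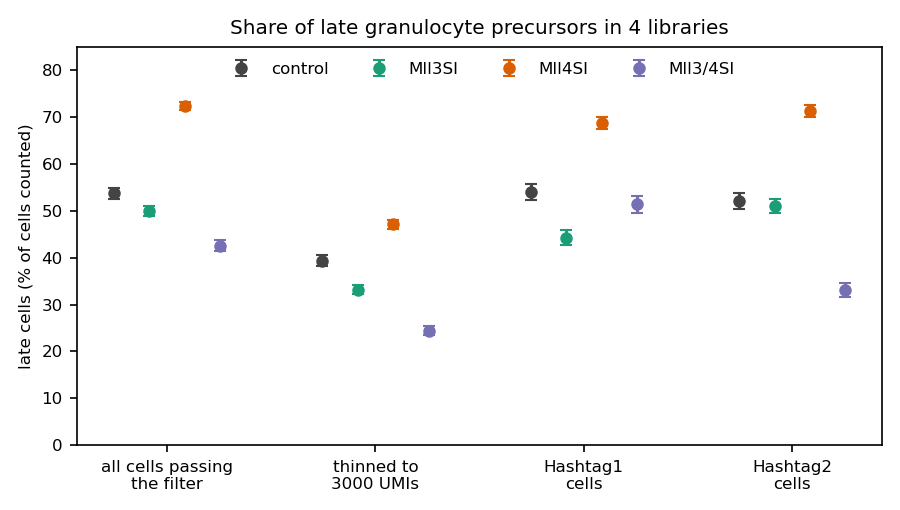
Late cells as a percentage of the cells counted (vertical axis), for each library as a coloured point with its exact 95% interval, among all cells passing the filter, after thinning to 3000 UMIs, and among the cells of each hashtag. Mll4SI was highest in each of the 4 settings, at 72.3% of all cells, and Mll3/4SI was lowest except among Hashtag1 cells, where Mll3SI was lowest at 44.3%.

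Cells with markers of other lineages met the rule now and then. Among cells with at least 2 UMIs of both Mecom and Hlf, transcription factors of stem cells, the rule was met by 7.26% (26 of 358), 13.6%, 19.7% and 5.59%, and 14, 37, 35 and 5 of those cells carried both hashtags. Among cells with at least 2 UMIs of the erythroid genes Klf1 and Car1 it was met by 9 of 149, 7 of 94 and 8 of 42 (6.04%, 7.45% and 19.05%) and by none of 41 in Mll3/4SI, which allows up to 7.32%. Among cells with both B-lymphoid genes Cd79a and Ebf1 it was met by 3 of 75, 21 of 208, 6 of 43 and 3 of 40. Summed over the whole list, 9 erythroid genes stood between 3.10 and 27.3 CPM in late cells of the 4 libraries, 8 T and NK genes between 2.18 and 51.7 CPM and 6 eosinophil genes between 2.34 and 14.7 CPM. The defining erythroid gene Klf1 was under 1 CPM in each library. The pairs of libraries shared 4 to 7 barcodes among late cells.

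The rule was met almost wholly through Ltf and Cd177, and Ly6g separated the libraries. Ltf and Cd177 both had 2 or more UMIs in 99.7%, 99.4%, 98.0% and 99.4% of late cells, whereas all 3 genes did in 69.9%, 60.4%, 45.2% and 34.2%. No Ly6g UMI was present in 16.2%, 21.6%, 36.4% and 49.2% of late cells. Cells just inside the rule, with the second gene at 2 UMIs, numbered 60, 120, 371 and 121, and cells just outside it, with the second gene at 1 UMI, 85, 130, 328 and 212. The first held Camp at 43252, 52928.5, 61564 and 49381 CPM, and the second at 16243, 34942, 44361 and 53478 CPM. In Mll3/4SI the cells just outside thus held no less Camp, and their Ngp was close, at 22617 against 22910.5 CPM. The rule therefore left out Mll3/4SI cells high in Camp and Ngp. The late share of Mll3/4SI counts only cells that met the rule.

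Ly6g RNA was lower in late cells of each mutant library than in control and lowest in Mll3/4SI. It stood at 293, 234, 199 and 92.7 CPM, log2 ratios of CPM + 1 of -0.33 (-0.36 to -0.30), -0.56 (-0.59 to -0.53) and -1.65 (-1.70 to -1.62). As Ly6g was itself used by the rule, the comparison was repeated in cells chosen by Ltf and Cd177 alone, a setting chosen after the data were seen, and gave 292, 233, 194 and 92.2 CPM. After thinning to 3000 UMIs, 50.8%, 44.6%, 36.6% and 22.3% of those cells had a Ly6g UMI, against 0.117% to 0.479% of Elane cells. In Hashtag1 and Hashtag2 cells Ly6g stood at 318 and 291 CPM in control and at 117 and 80.3 CPM in Mll3/4SI.

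The Gr1 antibody, which the rule did not use, followed the same order. Its median was 900, 831, 450 and 333 UMIs per late cell. As a per-cell log2 count centred on the 13 surface antibodies, the median was 5.26 in control, and the mutant libraries stood lower by differences of -0.49, -0.84 and -1.73. In Mll3SI late cells CD11b and CD117 differed by about as much, -0.50 and -0.49, so the difference there was not particular to Gr1. In Elane cells the Gr1 difference was 0.08, 0.43 and -0.90, so in Mll3/4SI it was not particular to late cells. By hashtag the control medians were 942.5 and 803 UMIs, those of Mll3SI 757 and 759, those of Mll4SI 430 and 355, and those of Mll3/4SI 409 and 207, so that each mutant subset lay below both control subsets. Such a centred value depends on all 13 antibodies, and as a share of antibody UMIs the log2 ratios to control were smaller, -0.21, -0.36 and -0.85.

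**Figure D2:**
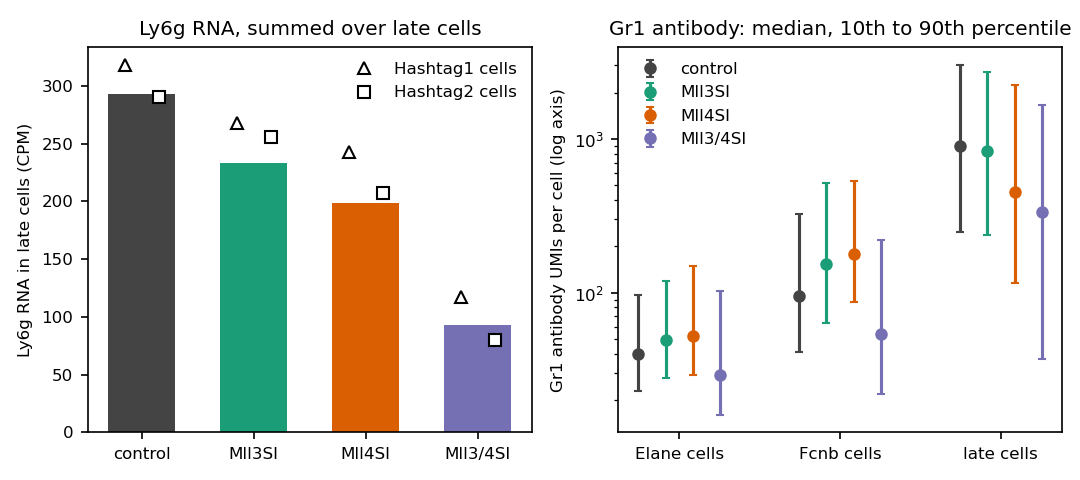
Left, Ly6g RNA in CPM summed over late cells of each library (bars) and in the cells of each hashtag (symbols). Right, Gr1 antibody UMIs per cell on a log axis as the median (points) with the 10th to 90th percentile of cells (lines) in Elane, Fcnb and late cells. Both measures were highest in control late cells (293 CPM and 900 UMIs) and lowest in Mll3/4SI late cells (92.7 CPM and 333 UMIs).

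Within each library late cells carried more Gr1 and CD11b and less Kit (CD117), CD48 and CD34 than Elane cells. Against Elane cells the centred value of Gr1 was higher by 3.75 ± 0.53 (SD, n = 4 libraries), CD11b (the integrin Itgam of myeloid cells) by 4.41 ± 0.44, and CD48 differed by -2.64 ± 0.34, CD34 by -1.87 ± 0.27 and CD117 by -1.82 ± 0.38, each in the same direction in 4 of 4 libraries. The exact two-sided sign-flip permutation test gave p = 0.125 for each, the smallest that 4 libraries allow, and 0.181 after Benjamini-Hochberg adjustment over 26 tests. The libraries were the unit here, and the 4 differ in genotype. Kit protein on late cells was low for a sort on Kit, with a median of 65 UMIs against 288 on Elane cells in control, and 58, 72 and 71 against 242, 243 and 231 in the mutant libraries.

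The step from Fcnb cells (at least 5 UMIs of Fcnb, the ficolin gene of the intermediate stage, and outside the late rule) to late cells was smaller in the mutant libraries than in control for both Gr1 and CD117 on the centred scale. The Gr1 difference was 3.02, 2.25, 1.20 and 2.39 in the 4 libraries, and the CD117 difference was -1.57, -1.28, -0.39 and -0.38. Both kept 1 direction in 4 of 4 libraries (exact sign-flip p = 0.125, adjusted 0.181). As a share of antibody UMIs the Gr1 step was 2.18, 1.62, 1.34 and 2.50 on the log2 scale, so that in Mll3/4SI it was larger than in control. The centred CD11b step was 2.04, 1.35, 0.28 and 0.37, and as a share of antibody UMIs it was 0.71, 0.46, -0.14 and 0.17. The centred CD34 step was -0.35, -0.19, -0.0043 and -0.17. The Fcnb cells numbered 207, 387, 324 and 435, and those of Mll4SI and Mll3/4SI already held specific granule RNA, with Ngp at 1986, 3057, 14367 and 17635 CPM and Lcn2 at 653, 990, 4295 and 5389 CPM.

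The genes that led late over Fcnb cells included Ifitm6, Chil3, Lcn2, Plbd1, S100a6, St3gal5, Fmnl2, Ngp and Adpgk, by the mean over libraries of the log2 ratio with 50 CPM added. This is a description, since the cells were chosen by their RNA. Plbd1, a granule phospholipase-like gene, was counted at 341, 212, 305 and 164 CPM in late cells and at 3.56, 4.79, 67.3 and 19.6 CPM in Fcnb cells. St3gal5, a sialyltransferase gene, stood at 251, 174, 191 and 123 CPM in late cells against 3.33, 3.96, 27.8 and 1.48 CPM. In the opposite direction Elane, Srgn, Prtn3, Ctsg and Mpo led, with Elane at 555 CPM in late and 15240 CPM in Fcnb cells of control.

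Cells without RNA of cell cycle genes were most frequent among Mll4SI late cells. After thinning to 3000 UMIs, the proliferation gene Mki67 had a UMI in 80.7%, 77.5%, 54.3% and 73.8% of late cells, against 33.8%, 31.4%, 31.1% and 29.9% of Elane cells. Late cells with no UMI of any of 15 cell cycle genes made up 3.34% of control late cells (2.79 to 3.96), against 1.68% for Mll3SI, 24.1% for Mll4SI (23.2 to 25.1) and 5.77% for Mll3/4SI. The Mll4SI share lay far above those of the other libraries, and in its Fcnb and Elane cells it was 6.56% and 3.65%. Summed over late cells, all 15 genes were below control in Mll4SI, with a median log2 ratio of -0.34, against 0.02 over all 7243 genes with a mean of at least 10 CPM. Of those 7243 genes, 53.5% were above control in Mll4SI. Top2a, a topoisomerase of dividing cells, stood at 816, 781, 576 and 772 CPM.

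Late cells without cell cycle UMIs held more RNA of gelatinase granule genes in each library. These cells were cut by a count, after the data were seen, and are a range of cells, not a type. In control they held Mmp8 (neutrophil collagenase) at 928 CPM, against 10.9 CPM in late cells with 10 or more cell cycle UMIs, and in the mutant libraries at 682, 682 and 432 CPM against 9.48, 24.6 and 8.26 CPM. Retnlg, a resistin-like gene of maturing neutrophils, stood at 1985, 2659, 1381 and 1110 CPM against 54.0, 85.3, 158 and 122 CPM. Ly6g was also higher in them, at 796, 751, 547 and 264 CPM against 296, 243, 126 and 95.5 CPM, and the order of the libraries in Ly6g was the same in both subsets. The median depth of the cells without cell cycle UMIs was lower, 8758 against 15669 gene UMIs in control and 7358 against 14264.5 in Mll4SI.

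Summed over all late cells, the genes of gelatinase granules and mature neutrophils were higher in Mll4SI and mostly lower in Mll3SI. In Mll4SI 9 of the 11 members with at least 10 CPM were above control (median log2 ratio 0.45), and 3 were more than 2-fold higher, where 0.607% of all genes were. In Mll3/4SI 6 of 11 were above and 2 were more than 2-fold lower, where 0.538% of all genes were (median 0.15). In Mll3SI 10 of 11 were below (median -0.34), and 1 was more than 2-fold lower, where 0.166% of all genes were. Mmp8 stood at 38.1, 18.1, 147 and 26.0 CPM, log2 ratios of -1.04, 1.92 and -0.53. Retnlg stood at 110, 120, 395 and 158 CPM, and Cxcr2, the chemokine receptor that draws neutrophils into blood, at 22.6, 19.4, 46.5 and 37.4 CPM. Padi4, which citrullinates histones in neutrophils, went the other way, at 114, 76.8, 29.5 and 41.8 CPM, log2 ratios of -0.56, -1.92 and -1.43. In late cells with 10 or more cell cycle UMIs the list median in Mll4SI was 0.08, and Padi4 was 115 CPM in control and 19.6 CPM in Mll4SI.

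**Figure D3:**
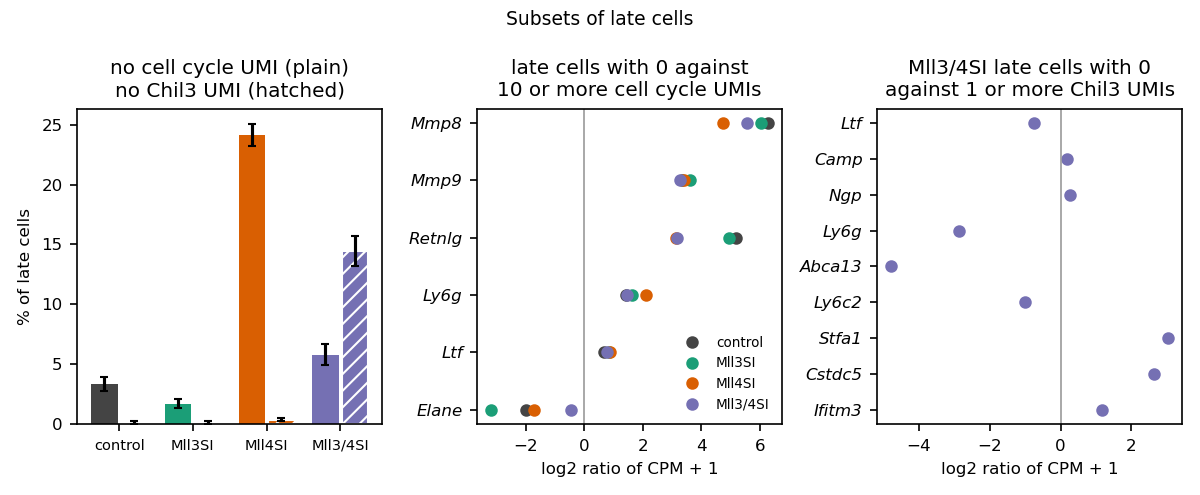
Left, percentage of late cells with no UMI of 15 cell cycle genes after thinning to 3000 UMIs (plain bars) and with no Chil3 UMI (hatched bars), with exact 95% intervals. Middle, log2 ratio of CPM + 1 of 6 genes in late cells with 0 against 10 or more cell cycle UMIs, 1 point per library. Right, the same for Mll3/4SI late cells with 0 against 1 or more Chil3 UMIs. The first share was 24.1% in Mll4SI and the second 14.4% in Mll3/4SI, and Mmp8 was higher in cells without cell cycle UMIs in each library.

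Specific granule genes differed little as a list and more by member. Of 15 genes, 9, 10 and 13 were below control in the mutant libraries, with medians of -0.09, -0.12 (0.03 as a mean over cells) and -0.28. The 15 genes include Ltf and Cd177, which the rule used, and no median was taken without them. Over all genes, 54.8%, 53.5% and 39.4% were above control in the mutant libraries. In Mll3/4SI 1 was more than 2-fold lower, Chil3, and 1 more than 2-fold higher, Itgb2l, where 0.566% of all genes were higher. Ltf stood at 6638, 5364, 6108 and 4693 CPM, and Lcn2, which binds bacterial siderophores, at 10116, 9480, 8681 and 8371 CPM. Chil3, a chitinase-like lectin of myeloid cells, stood at 10605, 6580, 8764 and 4046 CPM, log2 ratios of -0.69, -0.28 and -1.39. Itgb2l, an integrin beta chain, was higher in Mll3SI and Mll3/4SI, at 85.2, 160, 71.8 and 223 CPM. Abca13 was lowest in Mll4SI, at 592, 514, 339 and 418 CPM, and had no UMI in 1.09%, 1.79%, 18.8% and 24.2% of late cells. Cebpe varied less, at 587, 494, 471 and 509 CPM.

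**Figure D4:**
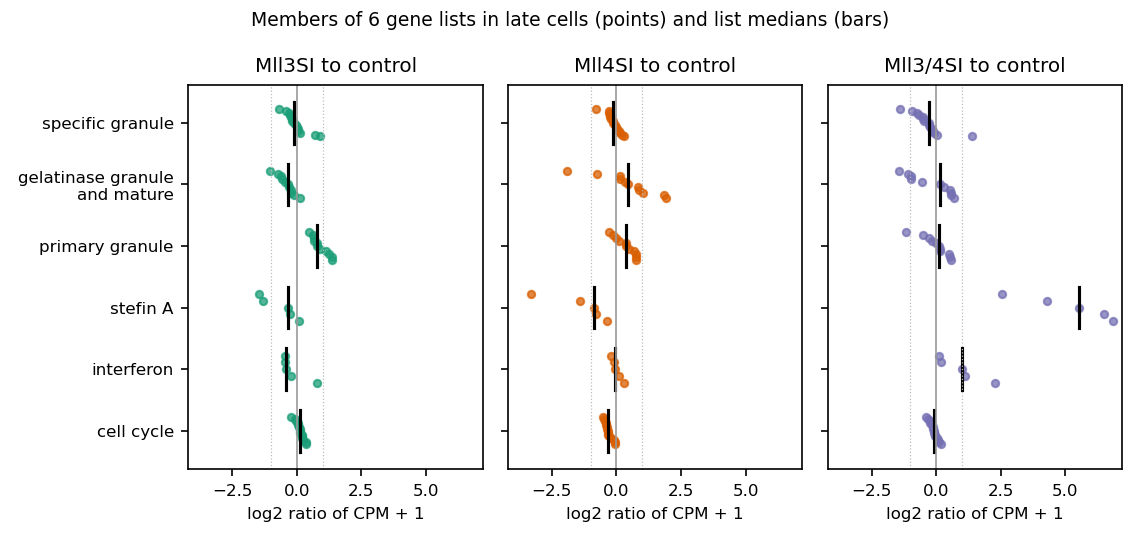
Log2 ratio of CPM + 1 in late cells of each mutant library to control (horizontal axis) for the members of 6 gene lists with a mean of at least 10 CPM (points) and the list median (black bars). Dotted lines mark a fold of 2. The specific granule list includes Ltf and Cd177, which the rule used. Of the 5 stefin A genes shown, 4 reached the minimum only through Mll3/4SI, where they lie far above 0. The gelatinase granule list is above 0 in Mll4SI (0.45), and the primary granule list is above 0 in Mll3SI (0.77).

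A subset of Mll3/4SI late cells had no Chil3 RNA, and the other late cells of that library were also low in it. Chil3 stood at 4684 CPM in Mll3/4SI late cells with 1 or more Chil3 UMIs, against 10605 CPM in control late cells. No Chil3 UMI was present in 3, 5, 28 and 440 late cells, which is 0.0781%, 0.116%, 0.346% and 14.4% (13.2 to 15.7) of each. The 440 cells had a median depth of 17461.5 gene UMIs, against 17923 in the other 2613 late cells of that library, and 4.09% against 9.07% carried both hashtags. Of those with a single hashtag, 67.7% were Hashtag2 cells, against 40.9% of the others. The cells with no Chil3 UMI were picked by that gene and are a range of cells, not a type.

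These 440 cells kept Camp and Ngp and differed in other genes. Camp stood at 66153 CPM in them and at 58424 CPM in the other Mll3/4SI late cells, and Ngp at 29294 and 24603 CPM. Ltf was counted at 2935 against 4970 CPM, Ly6g at 13.5 against 105 CPM, Abca13 at 16.5 against 481 CPM and Ly6c2, a surface antigen gene of myeloid cells, at 355 against 713 CPM. Their Gr1 antibody median was 46 UMIs against 420, while CD11b was 545 against 594. Without them Ly6g and Gr1 of Mll3/4SI (105 CPM and 420 UMIs) still lay below control (293 CPM and 900 UMIs).

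Genes of the stefin A family, small inhibitors of cysteine proteases, were high in Mll3/4SI late cells and low in the other libraries. They lie in a cluster on chromosome 16 (Stfa2l1 from 36156811 to Stfa3 ending at 36455392, GRCm38). Cstdc5 stood at 3.66, 0.885, 0.739 and 423 CPM, Cstdc4 at 0.302, 0.0983, 0.00860 and 149 CPM, Stfa1 at 21.7, 7.16, 1.30 and 132 CPM, and Stfa2l1 at 1.05, 0.623, 0.129 and 93.3 CPM. Stfa2 had no UMI in control or Mll4SI, 0.0164 CPM in Mll3SI and 30.0 CPM in Mll3/4SI. Of the 8 genes 5 averaged at least 10 CPM over the libraries, 4 of them (Cstdc5, Cstdc4, Stfa2l1 and Stfa3) only through Mll3/4SI, so their direction there was fixed by that minimum and no count or median is read from the list. Stfa1 was also more than 2-fold lower in Mll3SI and Mll4SI, where 0.166% and 0.511% of all genes were. The genes are close copies, so the split of UMIs between them is uncertain. The upstream windows shown here are 66.7% to 80.2% identical in the pairwise alignment of these 4 genes.
Stfa1 (chr16:36276948-36277147, plus strand): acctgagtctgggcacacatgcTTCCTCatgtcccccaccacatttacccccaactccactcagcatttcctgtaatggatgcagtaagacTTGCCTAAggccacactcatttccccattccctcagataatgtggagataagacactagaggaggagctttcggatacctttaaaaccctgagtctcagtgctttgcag
Stfa2l1 (chr16:36156611-36156810, plus strand): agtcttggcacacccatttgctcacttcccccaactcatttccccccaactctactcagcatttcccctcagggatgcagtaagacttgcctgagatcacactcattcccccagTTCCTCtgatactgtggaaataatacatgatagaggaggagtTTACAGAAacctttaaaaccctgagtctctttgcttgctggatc
Cstdc4 (chr16:36184012-36184211, plus strand): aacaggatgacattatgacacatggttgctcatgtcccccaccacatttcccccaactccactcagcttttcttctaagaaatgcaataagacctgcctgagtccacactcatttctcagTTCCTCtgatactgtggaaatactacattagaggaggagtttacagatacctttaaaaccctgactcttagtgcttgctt
Cstdc5 (chr16:36367571-36367770, minus strand): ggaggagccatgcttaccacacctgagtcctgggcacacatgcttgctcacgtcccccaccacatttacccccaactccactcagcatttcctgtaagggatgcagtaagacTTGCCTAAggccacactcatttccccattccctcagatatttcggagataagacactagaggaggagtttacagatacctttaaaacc
Capitals again mark the C/EBP core (1 match each in Stfa1, Stfa2l1 and Cstdc5) and the PU.1 core (1 match each in Stfa1, Stfa2l1 and Cstdc4).

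The stefin A RNA sat in few cells. Late cells with 10 or more UMIs of the 8 genes numbered 45, 9, 5 and 212, or 1.17%, 0.209%, 0.0618% and 6.94% of late cells (6.07 to 7.90 in Mll3/4SI). In Mll3/4SI they held 98.2% of all stefin A UMIs of late cells, up to 2061 in 1 cell, and 85 late cells lay between 5 and 19 UMIs. Both hashtags held such cells, 5.26% of Hashtag1 and 7.48% of Hashtag2 late cells. They were also present among Mll3/4SI Fcnb cells (11.7%) and rare among Elane cells (0.988%). Compared with Mll3/4SI late cells without a stefin A UMI, the 212 cells had Ly6g at 24.6 against 105 CPM, Chil3 at 1080 against 4519 CPM and a Gr1 median of 71 against 380.5 UMIs, while Camp was 63797 against 58969 CPM. Of the 212 cells, 17.5% carried both hashtags against 6.88%.

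Within each library the Gr1 antibody ordered late cells along the same genes. With the late cells of a library cut into 4 equal bins, from the lowest to the highest bin of Gr1, Ly6g went from 71.6 to 624 CPM for control, from 57.0 to 483 CPM for Mll3SI, from 25.8 to 539 CPM for Mll4SI and from 4.999 to 264 CPM for Mll3/4SI. Mmp8 was concentrated in the highest bin, at 154, 69.5, 514 and 99.2 CPM, against 7.55, 4.87, 86.9 and 6.09 CPM in the next. Fcnb stood at 1164 CPM in the lowest and at 367 CPM in the highest bin of control. Mki67 was higher in the highest than in the lowest bin in control (815 against 575 CPM), Mll3SI and Mll3/4SI, and lower in Mll4SI (465 against 505 CPM). In Mll3/4SI the lowest bin stood apart, with Abca13 at 92.3 CPM and Stfa2l1 at 258 CPM against 395 and 56.4 CPM in the next. The bins are sets of cells within 1 library, and the 4 values of a library share it.

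**Figure D5:**
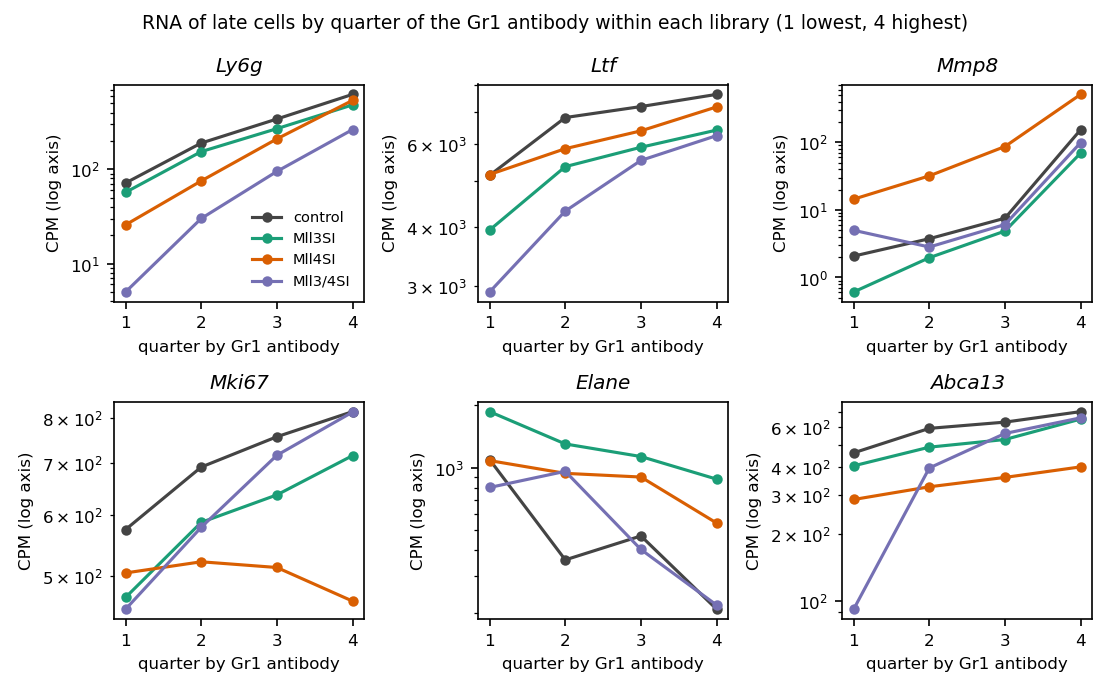
RNA in CPM on log axes (vertical) of 6 genes in late cells divided within each library into 4 equal bins by the centred Gr1 antibody value (horizontal, 1 lowest to 4 highest), 1 line per library. Ly6g increases along the bins in each library, Mmp8 is highest in the fourth, and Abca13 is lowest in the first bin of Mll3/4SI (92.3 CPM).

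Primary granule genes were higher in Mll3SI late cells than in control, and part of this stood in cells with both hashtags. All 11 genes with at least 10 CPM were above control in Mll3SI (median 0.77), and 4 were more than 2-fold higher, where 0.304% of all genes were. Over all genes, 54.8% were above control in Mll3SI. Elane (neutrophil elastase) stood at 555, 1311, 879 and 611 CPM, Prtn3 (proteinase 3) at 383, 996, 639 and 537 CPM and Mpo (myeloperoxidase) at 291, 547, 492 and 318 CPM. Without cells carrying both hashtags the list medians were 0.52, -0.06 and -0.03 in the mutant libraries, against 0.77, 0.36 and 0.13 with them, so the direction in Mll4SI and Mll3/4SI turned. In single-hashtag cells Elane stood at 321 and 550 CPM in the 2 control subsets and at 885 and 731 CPM in those of Mll3SI. Free RNA from earlier cells was not tested as a part of these values.

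Some interferon-stimulated genes were higher in Mll3/4SI late cells. Of the 5 list members with at least 10 CPM, Ifi27l2a reached that only through Mll3/4SI. Ifitm3, an antiviral membrane protein gene, stood at 285, 209, 354 and 620 CPM, and Ifi27l2a at 6.38, 4.41, 5.37 and 35.3 CPM. Ifit2 lay closer to control in Mll3/4SI, with a log2 ratio of 0.11. Isg15, an interferon-induced ubiquitin-like modifier and under the 10 CPM minimum, stood at 2.59, 2.65, 3.07 and 21.4 CPM. In Mll3/4SI it was 9.86 CPM in Hashtag1 and 34.8 CPM in Hashtag2 cells, and Ifi27l2a was 16.8 and 54.98 CPM. Earlier cells of Mll3/4SI were higher too. The list summed to 809 CPM in its Elane cells against 409 CPM in control, and to 879 against 194 CPM in Fcnb cells.

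The 6 NADPH oxidase genes, which make the oxidative burst, lay between -0.22 and 0.26 on the log2 scale over the 3 comparisons. Of 12 granulocyte transcription factors, 1 was more than 2-fold higher in Mll3SI (all genes 0.304%), Irf8, the factor of the monocyte and dendritic branch, at 17.3, 36.6, 34.5 and 12.6 CPM. The 8 monocyte genes summed to 865, 895, 886 and 721 CPM, most of it Ly6c2. The 3 with at least 10 CPM had medians of 0.75, 1.34 and -0.29, and 1 of them in Mll3SI and 2 in Mll4SI were more than 2-fold higher, with F13a1 at 24.0, 41.0, 62.1 and 11.7 CPM and Ms4a6c at 16.2, 34.6, 48.6 and 30.2 CPM, and their part in the result was not tested. S100a8 stood at 69590, 56838, 68974 and 94254 CPM, while S100a6 stood at 581, 326, 499.7 and 315 CPM, lower in Mll3SI and Mll3/4SI, and S100a10 at 22.5, 34.6, 24.1 and 8.75 CPM was more than 2-fold lower in Mll3/4SI. Of 16 receptors, 1 was more than 2-fold higher, Cxcr2 in Mll4SI (all genes 0.607%). Of 9 genes of the MLL3/4 complex the X-linked demethylase Kdm6a had the highest ratios in Mll4SI and Mll3/4SI, at 41.4, 40.04, 77.3 and 69.2 CPM, in the libraries with Xist.

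By the size of the log2 ratio in late cells the extremes were mostly single genes outside these lists. Out of 7243 genes, 34, 81 and 80 lay past a fold of 2 in the mutant libraries (0.469%, 1.12% and 1.10%), and the 3 comparisons share the control library. In Mll3/4SI Siglece, an inhibitory sialic acid receptor of myeloid cells, stood at 2.54 CPM against 119, 126 and 116 CPM in the other libraries. Rgcc, a cell cycle regulator, stood at 34.2 CPM against 228, 289 and 194 CPM. It was also low in Elane cells of Mll3/4SI, at 14.5 CPM against 359, 353 and 329 CPM. In Fcnb cells it was 79.5 CPM against 1119, 1029 and 736 CPM. The carbonic anhydrase gene Car1 stood at 0.918 CPM against 21.0, 21.1 and 17.3 CPM, but it also differed by hashtag, at 4.52 CPM in Hashtag2 cells of Mll3SI and 1.37 CPM in those of Mll4SI, against 0.831 and 1.26 CPM in the 2 hashtags of Mll3/4SI and 10.1 and 15.7 CPM in control. Both control values lay below its 21.0 CPM, so part of that level stood in cells with both hashtags or neither. Car2 was alike in control, at 7.29 and 6.84 CPM by hashtag against 14.2 CPM in all late cells. Tpm3-rs7 and Car2 were the other 2 of the 5 lowest, and 4 of the 5 highest were stefin A genes. Siglece and Rgcc were low in both hashtags of Mll3/4SI, Siglece at 3.03 and 2.40 CPM and Rgcc at 35.5 and 32.1 CPM.

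In Mll4SI the highest ratios belonged to Pcdh11x, a protocadherin, Epha5, an ephrin receptor, Adgrl3, an adhesion receptor, Astn2 and the endothelin receptor Ednra. Each of them reached the mean of 10 CPM only through Mll4SI, so their direction there was fixed by that minimum. Pcdh11x stood at 0.0954, 0.180, 44.9 and 4.03 CPM, and Astn2 at 8.24, 6.59, 94.6 and 13.9 CPM. Epha5, at 0.159, 0.164, 36.2 and 15.3 CPM, was also among the 5 highest of Mll3/4SI. The lowest were Cd3d, Stfa1, Dapk2, Apoe and Padi4. Cd3d, which encodes a chain of the T cell receptor complex, stood at 51.1, 38.4, 0.748 and 22.02 CPM, while Cd3e and Cd3g were under 1 CPM in each library. Dapk2, a kinase gene of granulocytes, stood at 28.6, 18.3, 4.57 and 12.5 CPM.

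In Mll3SI the extremes included genes of B cells. Igkc, the immunoglobulin kappa constant region, stood at 116 CPM in Mll3SI and at 1.15, 0.421 and 0.459 CPM in the others. It was low in Hashtag1 cells of Mll3SI (1.71 CPM) and high in Hashtag2 cells (265 CPM). Ebf1, a B-lymphoid factor, stood at 6.93, 33.4, 4.29 and 12.4 CPM, but at 25.6 and 10.6 CPM in Mll3SI cells of Hashtag1 and Hashtag2 alone, and at 9.36 and 0.396 CPM in those of control, with the 8 B-lymphoid genes summing to 19.2, 66.7, 13.04 and 23.2 CPM. Rnase2a, a ribonuclease gene, was counted at 41.7 CPM in Mll3SI and at 0.0159 to 0.0258 CPM elsewhere. Igkc, Ebf1 and Rnase2a reached the mean of 10 CPM only through Mll3SI, so their direction there was fixed by that minimum. The adenosine deaminase gene Ada and Prtn3 completed the 5 highest, and the 5 lowest were Tpm3-rs7, Fstl4, Stfa1, Paox and Btnl9. Tpm3-rs7, which resembles the tropomyosin gene Tpm3 so that its count is uncertain, stood at 241, 7.13, 126 and 6.31 CPM. In Elane cells it was 169, 5.55, 94.7 and 5.07 CPM.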

How the data were processed

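RNA and antibody UMIs of 4 CITE-seq libraries were analysed. The values are raw UMI counts per barcode as deposited by the authors, made with Cell Ranger 7.1.0 on mm10 per the submitters' processing notes, with no normalization. Cells were kept at 500 genes, 1000 gene UMIs and at most 10% mitochondrial UMIs, out of 7524 to 11678 barcodes per library. Hashtag thresholds were 118 UMIs for Hashtag1 and 325 for Hashtag2, set at the valley between the modes of the pooled counts. Cells above both stayed in, and leaving them or the top Scrublet scores (0.8% per 1000 cells) out was an alternative. Clusters were not used. Pairs of libraries shared 13 to 25 barcodes among kept cells.

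UMIs were summed per library and class of cells, and ratios are log2 of CPM + 1 for 7243 genes with a mean of at least 10 CPM over the 4 libraries. A fold of 2 is a size, not a test. Intervals are exact 95% intervals of counts or shares and cover counting error only. Surface antibodies were expressed per cell as centred log2 values over 13 antibodies. Late cells were set against Fcnb and Elane cells with an exact sign-flip permutation test over libraries. Genes named are list members, the 5 highest and 5 lowest ratios per mutant library, and the 10 genes leading late over Fcnb cells and the reverse, besides genes named for a subset. 1 of the leading genes is not reported here. The members and lists were chosen with earlier results of these data known. Python 3.11.15, numpy 2.4.6, scipy 1.17.1, pandas 2.3.3 and scanpy 1.11.5 were used, and the scripts were tested on simulated data. The alternatives were other UMI minimums, thinning, single hashtags, other CPM minimums and added values, median-of-ratios scaling, means over cells and shares of antibody UMIs.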

Additional observations from a re-analysis of the deposited data

Results flagged for a closer look

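The Mll4SI library differed from control in opposite directions in late and in Elane cells for a pair of antibodies. The centred CD117 (Kit) value was higher by 0.38 in late cells, while its difference in Elane cells was -0.24. The centred Gr1 value differed by -0.84 in late cells and by 0.43 in Elane cells. In Mll3/4SI the median log2 ratio of the specific granule genes was -0.28 in late cells (15 genes) and 0.66 in Elane cells (10 genes). The gene sets differ because the CPM minimum was applied within each class. Elane cells were also chosen as outside the rule, and the list holds Ltf and Cd177. The median of 5 S100 genes was -0.23 in late and 0.23 in Elane cells. In late cells 2 were above and 3 below control. S100a8 was above control in both classes, at 94254 against 69590 CPM in late and 5647 against 383 CPM in Elane cells. With 1 library per group, none of these differences between late and Elane cells was tested.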

How the results depend on the processing

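Directions were kept in 176 of 189 list medians, 32 of 33 share ratios and 31 of 31 antibody differences recomputed under the alternatives. The list medians counted include those of stefin A in Mll3/4SI, whose direction was fixed by the reported minimum of 10 CPM. With 1 library per group no difference between groups has a replicate check, and library and genotype cannot be told apart, nor sex and genotype in Mll4SI and Mll3/4SI. No paired analysis was possible because each group had 1 library, so only classes of cells within libraries were paired. Stefin A and interferon medians rest in part on genes that pass the CPM minimum through Mll3/4SI alone. The stefin A medians of Mll3/4SI below are listed for completeness and are not read as a result. The share ratios and list medians below lay outside their counting interval or turned direction. Gene counts and Gr1 differences had no such interval and are listed where they moved by more than a set amount. The cause was not tested. As reported, genes past the fold numbered 22 higher and 12 lower for Mll3SI, with 44 and 37 for Mll4SI, and 41 and 39 for Mll3/4SI. The settings on cell cycle UMIs, stefin A UMIs and Ltf with Cd177 alone were chosen after the data were seen. With 3 UMIs per rule gene, the share ratio was 1.305 for Mll4SI. With all 3 rule genes required, the share ratio was 0.804 for Mll3SI, 0.871 for Mll4SI and 0.388 for Mll3/4SI. With all 3 rule genes required, list medians were gelatinase granule 0.69 for Mll4SI, primary granule 0.58 for Mll4SI and -0.27 for Mll3/4SI, stefin A -0.82 for Mll4SI and 4.99 for Mll3/4SI, interferon 0.72 for Mll3/4SI and cell cycle -0.48 for Mll4SI. After thinning, the share ratio was 0.844 for Mll3SI, 1.20 for Mll4SI and 0.621 for Mll3/4SI. Over late, Fcnb and Elane cells alone, the share ratio was 1.18 for Mll4SI and 0.860 for Mll3/4SI. In Hashtag1 cells, the share ratio was 0.820 for Mll3SI, 1.27 for Mll4SI and 0.952 for Mll3/4SI. In Hashtag1 cells, list medians were gelatinase granule -0.41 for Mll3SI and 0.71 for Mll4SI, primary granule 0.29 for Mll4SI, stefin A -1.05 for Mll4SI and 5.32 for Mll3/4SI, interferon -0.26 for Mll3SI and 0.33 for Mll3/4SI and cell cycle -0.38 for Mll4SI. In Hashtag1 cells, the Gr1 difference was -1.42 for Mll3/4SI. In Hashtag2 cells, the share ratio was 0.980 for Mll3SI and 0.637 for Mll3/4SI. In Hashtag2 cells, list medians were gelatinase granule -0.27 for Mll3SI and 0.35 for Mll4SI, primary granule 0.27 for Mll3SI and -0.23 for Mll4SI and -0.095 for Mll3/4SI, stefin A -0.78 for Mll4SI and 5.62 for Mll3/4SI and interferon -0.29 for Mll3SI and 1.66 for Mll3/4SI. In Hashtag2 cells, the Gr1 difference was -2.30 for Mll3/4SI. With a minimum of 1 CPM, genes past the fold numbered 58 higher for Mll3SI, 33 lower for Mll3SI, 132 higher for Mll4SI, 85 lower for Mll4SI, 116 higher for Mll3/4SI and 82 lower for Mll3/4SI. With a minimum of 1 CPM, list medians were gelatinase granule -0.27 for Mll3SI, stefin A -0.82 for Mll4SI and 5.24 for Mll3/4SI and interferon -0.14 for Mll3SI and 1.67 for Mll3/4SI. With a minimum of 50 CPM, genes past the fold numbered 8 higher for Mll3SI, 3 lower for Mll3SI, 6 higher for Mll4SI, 9 lower for Mll4SI, 6 higher for Mll3/4SI and 14 lower for Mll3/4SI. With a minimum of 50 CPM, list medians were gelatinase granule 0.33 for Mll4SI and -0.53 for Mll3/4SI and primary granule 1.02 for Mll3SI and 0.57 for Mll4SI. With 10 CPM added, genes past the fold numbered 10 higher for Mll3SI, 1 lower for Mll3SI, 26 higher for Mll4SI, 11 lower for Mll4SI, 24 higher for Mll3/4SI and 19 lower for Mll3/4SI. With 10 CPM added, list medians were gelatinase granule 0.32 for Mll4SI, primary granule 0.70 for Mll3SI, stefin A -0.057 for Mll3SI and -0.13 for Mll4SI and 3.22 for Mll3/4SI and interferon -0.21 for Mll3SI and 0.74 for Mll3/4SI. Without cells of both hashtags, genes past the fold numbered 14 higher for Mll3SI. Without cells of both hashtags, list medians were primary granule 0.52 for Mll3SI and -0.058 for Mll4SI and -0.029 for Mll3/4SI and stefin A -0.93 for Mll4SI and 5.46 for Mll3/4SI. Under median-of-ratios scaling, list medians were gelatinase granule -0.41 for Mll3SI, primary granule 0.71 for Mll3SI and 0.32 for Mll4SI, stefin A -0.88 for Mll4SI and 5.55 for Mll3/4SI and cell cycle -0.39 for Mll4SI. In cells with 10 or more cell cycle UMIs, list medians were gelatinase granule -0.22 for Mll3SI and 0.084 for Mll4SI, primary granule 0.27 for Mll4SI and -0.16 for Mll3/4SI, stefin A -1.21 for Mll4SI and 5.64 for Mll3/4SI and cell cycle -0.0033 for Mll4SI. As means over cells, list medians were specific granule 0.025 for Mll4SI, gelatinase granule 0.63 for Mll4SI, primary granule 0.61 for Mll3SI and -0.039 for Mll4SI, stefin A -1.03 for Mll4SI and 5.19 for Mll3/4SI and cell cycle -0.59 for Mll4SI. As a share of antibody UMIs, the Gr1 difference was -0.21 for Mll3SI, -0.36 for Mll4SI and -0.85 for Mll3/4SI.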

Other observations

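Basophil and mast cell genes were counted at low levels in late cells and most in Mll3/4SI. Cpa3, the mast cell carboxypeptidase, stood at 9.38, 7.14, 22.7 and 31.1 CPM in control, Mll3SI, Mll4SI and Mll3/4SI, and the 6 genes of that list summed to 26.1, 24.98, 36.6 and 55.2 CPM. Bst2, the antiviral protein tetherin, stood at 16.5, 28.8, 17.8 and 34.4 CPM. Kit RNA, the transcript of the sorted receptor, stood at 49.5, 49.9, 69.1 and 52.2 CPM, and in Mll4SI late cells without a cell cycle UMI it was 44.2 CPM against 71.0 CPM in those with 10 or more.

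Of the 739 Mll3/4SI late cells without an Abca13 UMI, 389 also had no Chil3 UMI, whereas of 1521 such Mll4SI cells 11 did. The shortage of both transcripts in the same cells was therefore counted mainly in Mll3/4SI. In Mll3/4SI cells with no Chil3 UMI, Ifitm3 stood at 1191 CPM against 529.9 CPM in the others, and Mki67 at 481 CPM against 657 CPM.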
